A study of Arabidopsis thaliana with 24 samples.

Results

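WRKY6 (AT1G62300) and WRKY53 (AT4G23810) are genes for transcription factors of the WRKY family in Arabidopsis thaliana. They were chosen by symbol, as the probe sets that name 1 gene for WRKY6 and for WRKY53. Probe set 264746_at measures WRKY6 and 254231_at measures WRKY53, 2 of the 13513 probe sets that name 1 gene among 22746 on the array other than controls. Both were bright enough to be tested, as were 16814 probe sets in all. Tissue was taken from wild-type plants of the accession Col-0, grown on Murashige and Skoog medium in days of 16 h light. Treatment began at an age of 16 days, 3 h into the light period, when mannitol was stirred into the medium to 300 mM. Mannitol is a sugar alcohol that lowers the water potential around the roots. Roots and shoots were each sampled after 0.5, 1, 3, 6, 12 and 24 h, with 2 arrays per tissue and time, which makes 12 groups and 24 arrays. All groups were in mannitol. Plants without mannitol were not analysed here, and a change below is therefore a course over time in mannitol that also runs with time of day, except that 24 h and 0.5 h fall close together on the clock.

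WRKY proteins bind short promoter elements called W-boxes and act in defence, senescence and nutrition. In Arabidopsis, WRKY6 is known as a gene of roots and of ageing leaves, where its product represses the phosphate exporter gene PHO1 and acts on defence-related genes. WRKY53 is known as an early regulator of leaf senescence, whose product acts on catalase genes, senescence-associated genes and other WRKY genes, and is controlled by the kinase MEKK1 and the ubiquitin ligase UPL5. Transcripts of both genes are known to respond quickly to touch, wounding and other stresses.

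The tissue labels were checked first. The 6 green-tissue markers that could be tested summed to a signal of 308 to 964 in roots, against 12710 to 27893 in shoots. The 2 tested root markers of 15 listed, PYK10 and EXPA7, summed to 2738 to 3964 in roots, against 216 to 1042 in shoots. EXPA7, a gene of root hairs, was at a signal of 73.8 or less on every array, so the sum is nearly all PYK10. The root arrays of EXPA7, down to 0.84, overlapped its shoot arrays, up to 14.0. Replicate arrays correlated with Pearson's r of 0.973 to 0.983 across probe sets, and no pair held identical values. Whether the 2 replicates of a group were grown separately is not said in the labels, and the p-values below measure only the spread between these samples, which may be technical. A signal is a value in array units on a scale where each array averages about 100 after its extremes are trimmed, and it is not compared between the 2 genes, since each probe set has its own response. Differences were taken in log2(signal + 7.72), which shrinks the change of weak signals toward 0. They were tested with limma, and a difference was called at an adjusted p below 0.05 over all tested probe sets.

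WRKY6 had a higher signal in roots than in shoots, and it changed over time in shoots. Its root signal was within 1.53-fold over 12 arrays, and no comparison of times in roots passed the test. In shoots it was at its lowest at 1 h (signals of 26.1 and 10.5) and stood at 4.90-fold that level at 24 h, on the scale with the pseudocount. Against 0.5 h it stood at 2.41-fold at 24 h on that scale. This 24 h call was lost in some fits that left out 1 of its arrays and in a fit of the shoot arrays alone. WRKY53 went the other way in both respects: it was lower in roots than in shoots, and its called changes over time were falls. These were in roots at 3 h and 24 h against 0.5 h and in shoots at 6 h and 12 h against 1 h. Each of these calls was lost in some fits that left out 1 of its arrays. Limma's F-test over the 6 times did not call WRKY53 in roots or in shoots (adjusted p = 0.0698 and 0.0774). The 2 shoot arrays at 0.5 h differed widely for both genes, so results based on that time are given with and without each of these arrays.

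In roots, WRKY6 had signals of 320.3 and 239.7 in replicates 1 and 2 at 0.5 h, and of 347 and 366 at 1 h. They were 300.02 and 277 at 3 h, and 291 and 301 at 6 h. At 12 h they were 309.3 and 309.4, and at 24 h 301 and 294. The lowest and the highest array thus lay at 0.5 h and 1 h, and the arrays from 3 h on all lay between these. On every root array WRKY6 ranked between the 87.6th and the 92.1st percentile of all probe sets.

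WRKY6 in roots differed from its 0.5 h level by 0.35 ± 0.43 in log2 at 1 h (limma estimate ± SE). At 3, 6, 12 and 24 h the differences were 0.05, 0.09, 0.15 and 0.098. The 95% interval at 24 h ran from -0.81 to 1.01. Limma's F-test over the 6 times gave F = 0.163 and an adjusted p of 0.981, where 45.3% of all tested probe sets passed the same test in roots. The spread between replicate arrays of a time was an SD of 0.12 in log2 for WRKY6 in roots, against 0.70 in shoots. The SE and interval above come from the fit of both tissues, which shares 1 spread. In a fit of the root arrays alone the 24 h difference was 0.098 ± 0.13. Limma's F-test over the times in that fit gave an adjusted p of 0.272, still without a call. In 0 of 15 pairs of times was WRKY6 called in roots, with an unadjusted p of at least 0.422 and adjusted p between 0.692 and 0.942 against 0.5 h and 1 h. The share of all tested probe sets called in a root pair ran from 0.0297% (12 h minus 6 h) to 40.8% (24 h minus 0.5 h). Where few probe sets are called, the lack of a call says little about WRKY6.

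**Figure D1:**
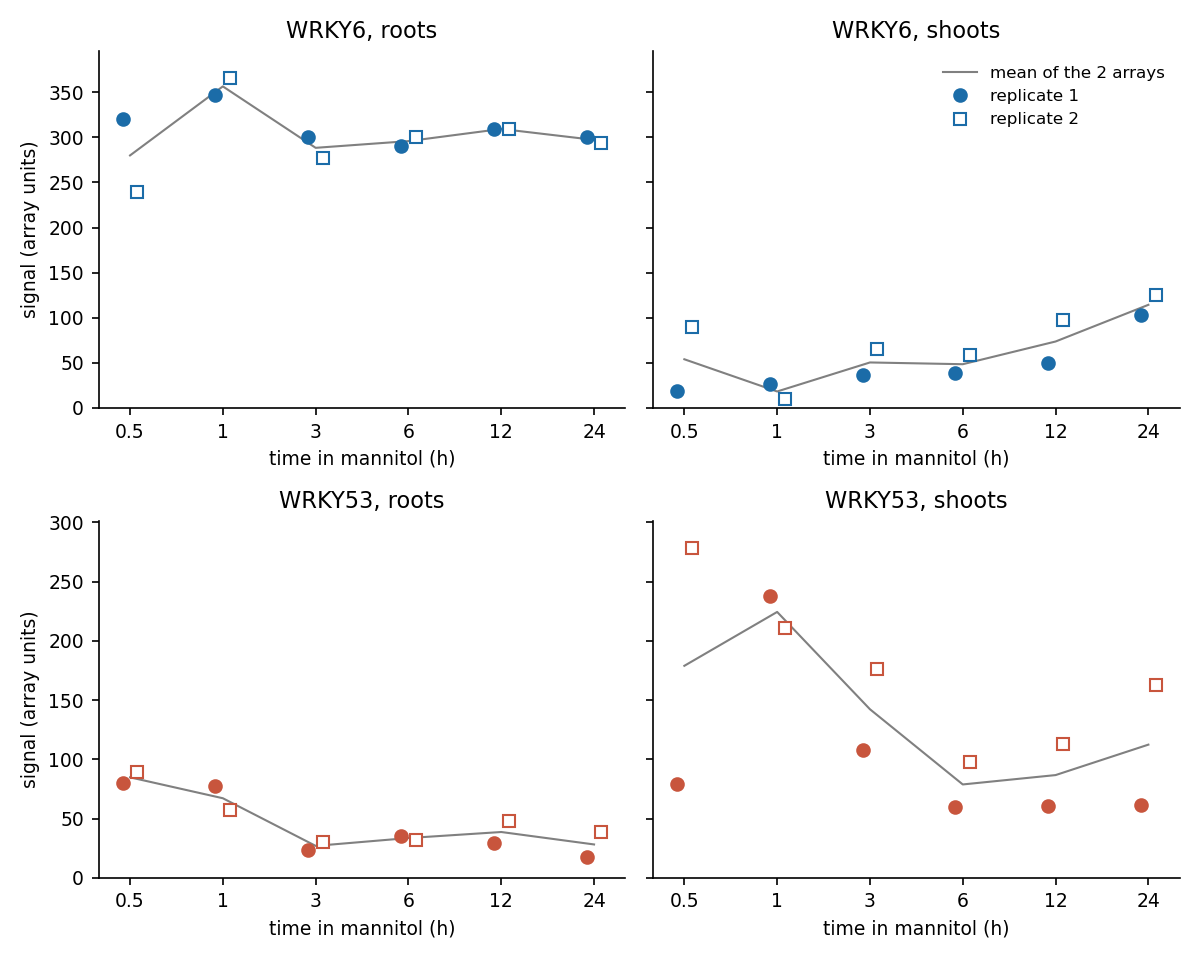
Signal in array units (linear axis from 0) of WRKY6 (top) and WRKY53 (bottom) in roots (left) and shoots (right) against time in mannitol, with replicate 1 as filled circles, replicate 2 as open squares and a line through the mean of the 2 arrays. All 12 root arrays of WRKY6 lie at or above 239.7, all 12 shoot arrays at or below 125.2, and the 2 shoot arrays at 0.5 h lie far apart for both genes.

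In shoots, WRKY6 had signals of 18.6 and 89.4 in replicates 1 and 2 at 0.5 h, and of 26.1 and 10.5 at 1 h. They were 36.1 and 64.8 at 3 h, and 38.3 and 58.7 at 6 h. At 12 h they were 50.4 and 97.0, and at 24 h 103 and 125.2. Both 24 h arrays were above every other shoot array, and both 1 h arrays were below every array from 3 h on. The shares of all probe sets with such splits were not counted. The 0.5 h arrays spanned most of this range by themselves. In rank on its own array, WRKY6 was between the 26.9th and the 76.2nd percentile in shoots.

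WRKY6 was higher in shoots at 24 h than at 0.5 h by 1.27 ± 0.43 in log2 (adjusted p = 0.0179 in limma), with means of 114 ± 15.4 at 24 h and 54.0 ± 50.1 at 0.5 h (SD, n = 2 each). Of all tested probe sets, 58.6% passed in that comparison. The median of all probe sets was -0.12 there, and 0.05 after scaling each array to the same median; relative to the median of -0.12, WRKY6 was at 1.39. The call rested on single arrays: it was lost without shoots 0.5 h replicate 1, where the difference was 0.32 (adjusted p = 0.480), and without shoots 24 h replicate 2 (1.14, adjusted p = 0.0850). Without shoots 0.5 h replicate 2 the difference was 2.21. At 1, 3, 6 and 12 h WRKY6 in shoots differed from 0.5 h by -1.03, 0.16, 0.13 and 0.63, with adjusted p of 0.172, 0.816, 0.829 and 0.235. The share of probe sets called at those times was 8.8%, 35.6%, 48.1% and 53%. Without shoots 0.5 h replicate 1 the 1 h difference was -1.97 and passed. Without replicate 2 the differences at 3, 6 and 12 h were 1.1001, 1.07 and 1.57 and passed. In both fits the wide gap between these 2 arrays no longer counted toward the spread, and the SE was 0.36, against 0.43.

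Set against 1 h, where the 2 shoot arrays lay closer, WRKY6 was higher in shoots at each later time. The differences at 3, 6, 12 and 24 h were 1.18, 1.16, 1.65 and 2.29, with adjusted p of 0.0463, 0.0361, 0.00386 and 0.000198 in limma. Both arrays of each later time were above both 1 h arrays, but the share of all probe sets without such overlap was not counted. The shares of all probe sets called in these 4 comparisons were 30%, 45.4%, 50.9% and 57.1%. The 24 h call was kept without each of the 4 arrays in turn, at 1.85 to 2.74. The other calls were lost without shoots 1 h replicate 2, with differences for 3, 6 and 12 h of 0.74, 0.71 and 1.21. They were also lost without replicate 2 of 3 h (0.82), of 6 h (0.89) and of 12 h (1.23), each for its own time. The 3 h call was further lost with 4 times the pseudocount (0.72, adjusted p = 0.0781), without the filter (0.0661), without the variance trend (0.0545) and when only shoot arrays were fitted (0.144). The 6 h call was lost in the first, second and last of these (0.698 with adjusted p = 0.0665, then 0.0522 and 0.117). Against the mean of 0.5 h and 1 h, WRKY6 was 1.78 ± 0.37 higher at 24 h (adjusted p = 0.000468, where 62.2% of probe sets passed).

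Over the 6 times in shoots WRKY6 gave F = 6.19 and an adjusted p of 0.00359 in limma's F-test, where 71.2% of all tested probe sets passed. This call held without each of the 12 shoot arrays in turn, with an adjusted p of at most 0.0341. It was lost in a fit of the shoot arrays alone (adjusted p = 0.0504). In order of level the times ran 1, 0.5, 6, 3, 12 and 24 h, and of the 5 neighbouring pairs only 1 h and 0.5 h differed beyond an unadjusted 95% interval of the difference (-1.94 to -0.12). Among the 6 pairs of times from 3 h on, WRKY6 was called in shoots in 1, 24 h minus 3 h (1.11 ± 0.43, adjusted p = 0.0471). That call was lost without shoots 3 h replicate 1 (0.75), without shoots 24 h replicate 1 (1.24) and without shoots 24 h replicate 2 (0.98). It was also lost without a pseudocount (adjusted p = 0.0756), without the filter (0.0662), without the variance trend (0.0547) and in the fit of shoot arrays alone (0.138). The change at 24 h minus 6 h passed with 4 times the pseudocount (0.88, adjusted p = 0.0335) or median scaling (1.27, 0.0278). The shoot shares of probe sets called were 42.2% in that pair, 14.4% for 6 h minus 3 h, 30.2% for 12 h minus 3 h, 12.5% for 12 h minus 6 h, 30.2% for 24 h minus 6 h and 15.3% for 24 h minus 12 h.

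Some measures of the shoot arrays moved over the same times. The ratio of the 3' to the 5' signal of the actin control, a sign of RNA quality, was 14.4 and 18.9 on the 24 h shoot arrays, against 7.12 and 6.42 at 0.5 h and 7.05 and 8.67 at 1 h. The second actin design moved less, with 2.604 and 2.54 at 24 h, against 2.41 and 2.42 at 0.5 h. The 6 green-tissue markers summed to 13548 and 16745 in shoots at 24 h, against 24484 and 27893 at 0.5 h, and 5 of the 6 fell. Of all tested probe sets 58.6% were called in that comparison. The root marker sum in shoots, nearly all PYK10, was 365 and 362 at 24 h, against 1042 and 879 at 0.5 h. It was 496 and 438 at 1 h, when WRKY6 was at its lowest. The part of RNA quality and of tissue make-up in the WRKY6 change was not tested. In these samples of whole organs, fewer cells of a type and less RNA per cell cannot be told apart.

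**Figure D2:**
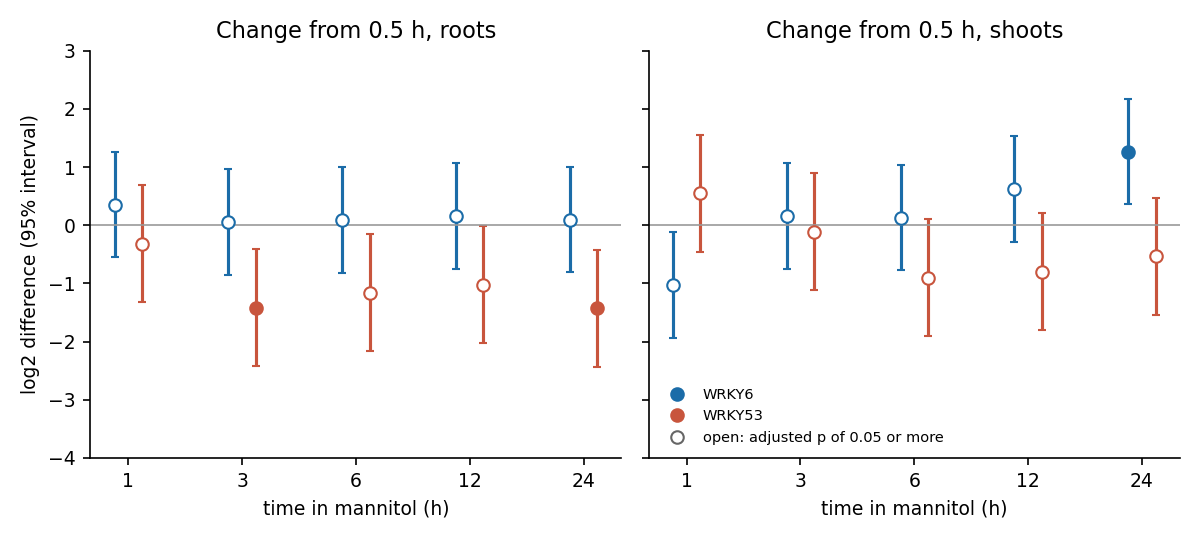
Difference from 0.5 h in log2(signal + 7.72), with 95% intervals from limma, for WRKY6 (blue) and WRKY53 (red) in roots (left) and shoots (right) at 1 to 24 h. Filled points passed an adjusted p of 0.05: WRKY53 in roots at 3 h (-1.42) and 24 h (-1.43), and WRKY6 in shoots at 24 h (1.27).

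WRKY53 was lower in roots from 3 h on than up to 1 h. It had signals of 80.4 and 89.2 in replicates 1 and 2 at 0.5 h, and of 77.5 and 56.9 at 1 h. They were 23.9 and 30.1 at 3 h, and 35.7 and 31.5 at 6 h. At 12 h they were 29.8 and 47.5, and at 24 h 17.5 and 38.9. All 4 arrays up to 1 h were above all 8 arrays from 3 h on, a split whose share over all probe sets was not counted. The lowest signal, at 24 h, was at the 31.0th percentile of its array and the highest, at 0.5 h, at the 66.0th.

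WRKY53 was lower in roots at 24 h than at 0.5 h by 1.43 in log2 (-1.43 ± 0.48, adjusted p = 0.0238 in limma), with means of 28.2 ± 15.1 at 24 h and 84.8 ± 6.20 at 0.5 h (SD, n = 2 each). The median of all probe sets was -0.08 in that comparison, and relative to it WRKY53 was at -1.35. At 3 h the difference was -1.42 (adjusted p = 0.039). At 1, 6 and 12 h it was -0.32, -1.16 and -1.02 and did not pass (adjusted p = 0.854, 0.0695 and 0.103), but in a fit of the root arrays alone 6 h (0.00844) and 12 h (0.0142) passed. The shares of all tested probe sets that passed in roots at 1, 3, 6, 12 and 24 h were 0.737%, 24.1%, 33.9%, 37.7% and 40.8%. The 3 h call was lost without each of its 4 arrays in turn (adjusted p between 0.0888 and 0.177). It was also lost with 4 times the pseudocount (-1.001, adjusted p = 0.0638), without the filter (0.0545) and with median scaling (-1.26, 0.0562). The 24 h call remained without roots 24 h replicate 2 (-1.88). It was lost without roots 24 h replicate 1 (-0.99, adjusted p = 0.210) and without roots 0.5 h replicate 1 (-1.50, 0.0690) or replicate 2 (-1.36, 0.105).

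The F-test over the 6 times did not call WRKY53 in roots (F = 3.13, adjusted p = 0.0698), where 45.3% of all tested probe sets passed. It did so in a fit of the root arrays alone (adjusted p = 0.00551). Against 1 h the root differences at 3, 6, 12 and 24 h were -1.102, -0.85, -0.70 and -1.11, and 0 of these 4 passed in the fit of all arrays (adjusted p = 0.161, 0.222, 0.291 and 0.0817), though 2 had an unadjusted p under 0.05, those at 3 h and 24 h. In the fit of root arrays alone 3, 6 and 24 h passed (adjusted p = 0.0296, 0.0487 and 0.0103). The shares of probe sets called there were 9.92%, 22.6%, 29.2% and 33.6%. Against the mean of 0.5 h and 1 h the 24 h difference was -1.27 ± 0.41 and passed (adjusted p = 0.0192, where 43.3% of probe sets passed). From 3 h to 24 h no pair of times was called for WRKY53 in roots, with differences of at most 0.41 in size. The root shares of probe sets called among those pairs were 0.208% for 6 h minus 3 h, 6.98% for 12 h minus 3 h, 18.2% for 24 h minus 3 h, 0.0297% for 12 h minus 6 h, 5.87% for 24 h minus 6 h and 1.55% for 24 h minus 12 h. In order of level the times ran 24, 3, 6, 12, 1 and 0.5 h, and the interval of each of the 5 neighbouring pairs included 0.

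Measures of the root arrays moved over the same times. The 6 green-tissue markers summed to 964 and 735 in roots at 24 h, against 308 and 319 at 0.5 h, and all 6 rose. Of all tested probe sets 40.8% were called in that comparison. Root marker sums, nearly all PYK10, were 3733 and 3762 at 24 h, against 3092 and 3546 at 0.5 h. The second actin ratio of 3' to 5' signal was 2.13 and 2.14 at 3 h, against 1.73 and 1.75 at 0.5 h, and it was 1.89 and 2.02 at 24 h. The first actin ratio was 11.8 and 12.8 at 24 h, against 10.01 and 12.1 at 0.5 h. The part of these measures in the WRKY53 fall was not tested.

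In shoots, WRKY53 had signals of 79.6 and 278 in replicates 1 and 2 at 0.5 h, and of 238 and 211 at 1 h. They were 108 and 177 at 3 h, and 59.4 and 98.2 at 6 h. At 12 h they were 60.3 and 113, and at 24 h 61.8 and 163. Replicate 2 was the higher at every time but 1 h. Both arrays of 1 h were above all arrays from 3 h on, a split whose share over all probe sets was not counted. Replicate 1 at 0.5 h lay among the late arrays and replicate 2 at 0.5 h above them all.

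WRKY53 fell in shoots between 1 h and the middle of the course, and at no time was it called against 0.5 h. Against 1 h it was lower by 1.46 in log2 at 6 h (-1.46 ± 0.48, adjusted p = 0.0189 in limma) and by 1.35 at 12 h (-1.35, 0.0252). The arrays did not overlap, but the share of all probe sets without overlap was not counted. Of all tested probe sets 45.4% and 50.9% were called in these 2 comparisons. At 3 h and 24 h the differences from 1 h were -0.67 (adjusted p = 0.323) and -1.09 (0.0609), where 30% and 57.1% of probe sets passed. The 6 h call was lost without shoots 1 h replicate 1 (-1.37), 1 h replicate 2 (-1.54) or 6 h replicate 1 (-1.13). The 12 h call was lost without shoots 1 h replicate 1 (-1.27), 1 h replicate 2 (-1.44) or 12 h replicate 1 (-0.94). Both calls were lost in a fit of the shoot arrays alone (adjusted p = 0.0577 at 6 h and 0.0683 at 12 h). Without shoots 24 h replicate 2 the 24 h difference was -1.74 and passed (adjusted p = 0.0113), and it passed with 4 times the pseudocount (-0.93, 0.0488). Against 0.5 h WRKY53 in shoots differed by 0.55, -0.11, -0.91, -0.80 and -0.54 at 1, 3, 6, 12 and 24 h, with adjusted p of 0.586, 0.884, 0.130, 0.170 and 0.351. The shares of probe sets called at these times were 8.8%, 35.6%, 48.1%, 53% and 58.6%.

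The level of WRKY53 in shoots at 0.5 h depended on which array was taken. Without shoots 0.5 h replicate 1 its differences at 6, 12 and 24 h were -1.76, -1.66 and -1.39, and each passed (adjusted p = 0.00751, 0.00973 and 0.0225). Without shoots 0.5 h replicate 2 the 24 h difference had the other sign, at 0.32, and without shoots 24 h replicate 1 it was at 0.11. Over the 6 times limma's F-test gave F = 2.67 and an adjusted p of 0.0774, where 71.2% of all tested probe sets passed. The F-test passed without shoots 0.5 h replicate 1 (range of means 1.76) or replicate 2 (1.46), and without shoots 24 h replicate 1 (1.46) or replicate 2 (1.74). Leaving out 1 array of a pair also takes the gap between its 2 arrays out of the spread. A pass in such a fit therefore cannot be read as a firmer change. The times ran 6, 12, 24, 3, 0.5 and 1 h in order of level, and no neighbouring pair differed beyond its interval. From 3 h to 24 h no pair of times was called for WRKY53 in shoots, the largest difference being -0.79 (6 h minus 3 h).

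The 2 replicate arrays of shoots at 0.5 h were set against each other. Both genes were already known to differ between these arrays when they were chosen to be described array by array, so their differences and ranks are a description without a test. WRKY6 was 4.81-fold higher in signal on replicate 2 than on replicate 1, and WRKY53 3.50-fold higher. In log2(signal + 7.72) the differences were 1.89 and 1.71, at the 99.8th and the 99.7th percentile of all tested probe sets, which had an SD of 0.391, a 5th percentile of -0.54 and a 95th of 0.65. Over all tested probe sets, 51.0% were higher on replicate 2 and 2.74% differed by more than 1 in log2 either way. The 2 arrays had similar marker sums, with 27893 on replicate 2 and 24484 on replicate 1 for green tissue, and 879 and 1042 for roots. Their first actin ratios were 6.42 and 7.12.

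Other genes differed more between the same 2 arrays. Among probe sets naming 1 gene, the 5 largest differences upward were those of AT2G22880 (signals of 65.0 on replicate 2 and 1.85 on replicate 1), AT4G12490 (189.7 and 22.9), STZ (581 and 91.9), AT4G27280 (817 and 148) and AT1G10340 (119.5 and 17.7). STZ, also called ZAT10, encodes a zinc finger repressor of stress responses. The 5 largest downward were those of AT4G29030 (-2.44), AT2G07170 (-2.10), AT5G62210 (-2.07), AT5G62550 (-2.06) and AT4G22490 (-2.05). Of the 3 other tested WRKY genes, WRKY22 was beyond the 95th percentile (1.38), while WRKY47 (0.62) and WRKY20 (0.25) were higher on replicate 2 within it. All 4 tested genes of the list of early touch, wound and stress responses were higher too, 3 beyond the 95th percentile, with a median of 1.077. Of the 5 tested senescence genes 4 were higher and 2 beyond that percentile. The other, SAG29, was lower on replicate 2 (-1.05), beyond the 5th percentile of -0.54. The lists were chosen with earlier results of these data known, so their counts here are a description without a test. What set these 2 arrays apart was not tested.

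**Figure D3:**
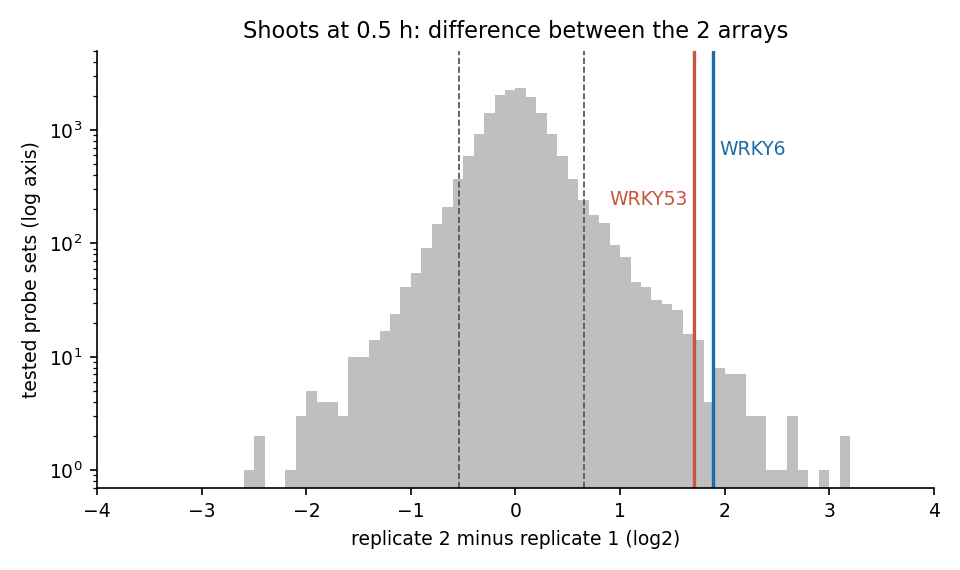
Number of tested probe sets (log axis) by the difference in log2(signal + 7.72) between replicate 2 and replicate 1 in shoots at 0.5 h. Dashed lines mark the 5th and 95th percentiles (-0.54 and 0.65), and WRKY6 (1.89) and WRKY53 (1.71) lie in the upper tail.

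The 2 genes deviated in the same direction at the other shoot times as well. Replicate 2 was above replicate 1 by 0.73, 0.53, 0.85 and 0.26 for WRKY6 at 3, 6, 12 and 24 h, and by 0.67, 0.66, 0.83 and 1.30 for WRKY53. At 1 h it was below, by 0.89 for WRKY6 (-0.89) and 0.17 for WRKY53 (-0.17). Replicate 2 was thus the higher at 5 of 6 times for each gene in shoots, as for 13.1% of all tested probe sets at 5 or 6 of the times. In roots the count was 3 of 6 for WRKY6 and 4 of 6 for WRKY53, and 10.97% of probe sets had 5 or 6. The SD between replicates of a time was 0.12 in roots and 0.70 in shoots for WRKY6, and 0.34 in roots and 0.72 in shoots for WRKY53.

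The tissue difference over the mean of the times was called for both genes under every alternative run. WRKY6 was higher in roots than in shoots by 2.43 ± 0.18 in log2 over the mean of the times (adjusted p = 3.48e-10 in limma), which is 5.38-fold on the scale with the pseudocount. All 12 root arrays, from 239.7 to 366, were above all 12 shoot arrays, from 10.5 to 125.2, a split whose share over all probe sets was not counted. WRKY53 was lower in roots than in shoots by 1.36 in log2 (-1.36 ± 0.20, adjusted p = 3.67e-06), with root arrays from 17.5 to 89.2 and shoot arrays from 59.4 to 278, which overlapped. Of all tested probe sets 84.1% passed this comparison, so a call in it is common. The median of all probe sets was itself 0.25 above 0 in roots minus shoots and 0.03 after scaling each array to the same median. Relative to the median of 0.25, WRKY6 was at 2.18 and WRKY53 at -1.61. Leaving out each of the 24 arrays in turn kept both calls, at 2.27 to 2.59 for WRKY6 and -1.51 to -1.22 for WRKY53.

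The WRKY6 tissue difference was largest at 1 h and smallest at 24 h. Over the 6 times in order roots were above shoots by 2.50, 3.88, 2.39, 2.46, 2.02 and 1.33, and all 6 passed (the highest adjusted p was 0.0129, at 24 h). The 24 h call was lost without roots 24 h replicate 1 (1.31, adjusted p = 0.0514), without shoots 24 h replicate 1 (1.20, 0.0718) and with median scaling (0.97, 0.0559). WRKY53 was lower in roots than in shoots by 1.64 at 1 h (-1.64, adjusted p = 0.00608), 2.08 at 3 h (-2.08, 0.00102) and 1.67 at 24 h (-1.67, 0.00579). It did not pass at 0.5 h (-0.77, 0.160), 6 h (-1.03, 0.0701) or 12 h (-0.99, 0.0834). With quantile normalization 6 h (-1.18, adjusted p = 0.0339) and 12 h (-1.10, 0.0476) passed, as they did with median scaling (-1.24, 0.027 and -1.19, 0.0347). Of all tested probe sets 67.8%, 64.1%, 64.6%, 61.9%, 59% and 61.7% passed at the 6 times in order. The WRKY53 call at 24 h was lost without roots 24 h replicate 1 (-1.23) and without shoots 24 h replicate 2 (-1.02), and the difference at 0.5 h passed without shoots 0.5 h replicate 1 (-1.63, adjusted p = 0.00725).

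**Figure D4:**
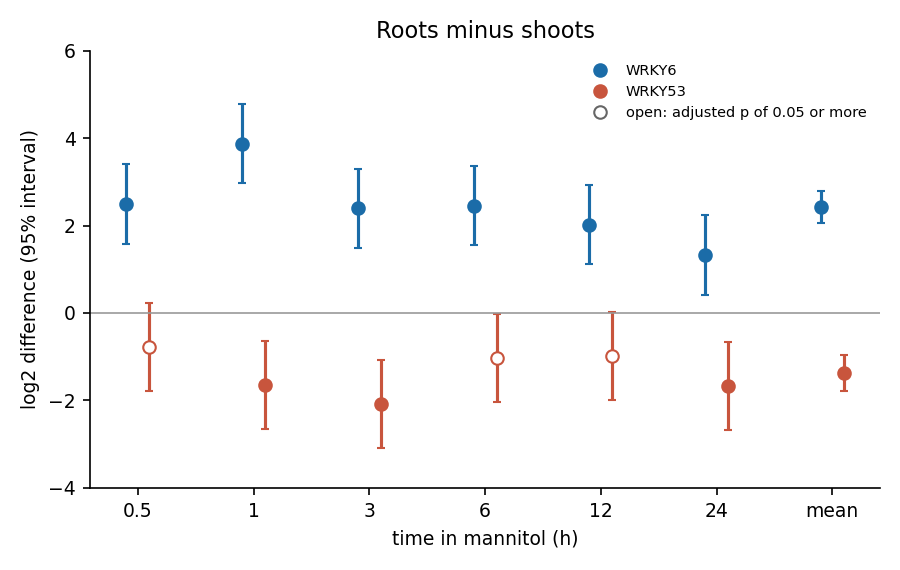
Roots minus shoots in log2(signal + 7.72), with 95% intervals from limma, for WRKY6 (blue) and WRKY53 (red) at each time and over the mean of the 6 times, with filled points past an adjusted p of 0.05. WRKY6 lies above 0 at every time, from 3.88 at 1 h to 1.33 at 24 h, and WRKY53 lies below 0 at every time.

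Whether the course over time differed between the tissues was tested directly. For WRKY6 the F-test of the 5 interaction terms gave F = 3.75 and an adjusted p of 0.0383, where 49.2% of all tested probe sets passed. It passed in 11 of the 24 fits that left out 1 array, with adjusted p between 0.00126 and 0.155. No single time carried a call for WRKY6: the root change from 0.5 h minus the shoot change was 1.38, -0.10, -0.04, -0.47 and -1.17 at 1, 3, 6, 12 and 24 h, with 0.149 as the lowest adjusted p, that of 24 h. The shares of probe sets called at these times were 4.22%, 21.5%, 28.7%, 35.3% and 35.3%. Without shoots 0.5 h replicate 2 WRKY6 was called at 12 h (-1.41) and 24 h (-2.11), and without replicate 1 at 1 h (2.32). For WRKY53 the interaction did not pass (F = 1.12, adjusted p = 0.451), with differences of -0.87, -1.31, -0.26, -0.22 and -0.90 at the same times. Without shoots 0.5 h replicate 2 it was called at 3 h (-2.16) and 24 h (-1.75).

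Of 67 WRKY loci in the gene table, 6 were named by a probe set with 1 gene and 5 could be tested. WRKY42, whose product also represses PHO1, was too dim to test, with signals of at most 14.6. In shoots at 24 h against 0.5 h, WRKY6 was the 1 of 5 that rose and 3 fell, where 58.6% of all tested probe sets passed. The median of the 5 was -0.61, against -0.12 over all probe sets. WRKY22, a gene of defence signalling downstream of MAP kinases, fell by 2.06 in log2 (-2.06 ± 0.43, adjusted p = 0.000519). Its shoot signals were 23.7 and 21.9 at 24 h, against 71.0 and 197 at 0.5 h, and it was already lower at 1 h (22.0 and 23.9, adjusted p = 0.0047). The 1 h call of WRKY22 was lost without shoots 0.5 h replicate 2 (-1.36). WRKY47 fell by 2.22 (-2.22 ± 0.25, adjusted p = 7.98e-07), with 14.3 and 33.2 at 24 h, against 105 and 165 at 0.5 h. WRKY20 fell by 0.61 (-0.61 ± 0.17, adjusted p = 0.00635), a call that was lost when shoots 0.5 h replicate 2 (-0.48) or 24 h replicate 1 (-0.45) was left out.

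In roots at 24 h against 0.5 h, WRKY53 was the 1 of 5 WRKY genes that fell and 0 rose, where 40.8% of all tested probe sets passed, a larger share. The median of the 5 was -0.26, against -0.08 over all probe sets. WRKY20 was at 0.38 in roots (adjusted p = 0.0921), and it passed after quantile normalization (0.50) or median scaling (0.52). WRKY22 was at -0.42 and WRKY47 at -0.26. Between tissues WRKY6 and WRKY47 (0.60 ± 0.10, adjusted p = 3.24e-05) were higher in roots and WRKY53 lower. WRKY22 (0.38) and WRKY20 (-0.08) did not pass, though WRKY20 was called lower in roots after quantile normalization (-0.22) or median scaling (-0.31). WRKY22 was called higher in roots without a pseudocount (0.53, adjusted p = 0.0277) and in 4 of the 24 fits that left out 1 array, up to 0.49 without shoots 0.5 h replicate 2 (0.00792). ZAP1, an older symbol of WRKY1 and outside the rule on symbols, was 0.47 ± 0.14 higher at 24 h in roots (adjusted p = 0.0155) and 0.38 ± 0.14 higher in shoots (0.0333). The root call of ZAP1 was lost when 0.5 h replicate 2 (0.34) or 24 h replicate 1 (0.29) was left out, and its shoot call when 0.5 h replicate 1 (0.31) or 24 h replicate 2 (0.28) was. The shoot call of ZAP1 was also lost with quantile normalization (0.33, adjusted p = 0.0531) and in the fit of shoot arrays alone (0.0532).

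**Figure D5:**
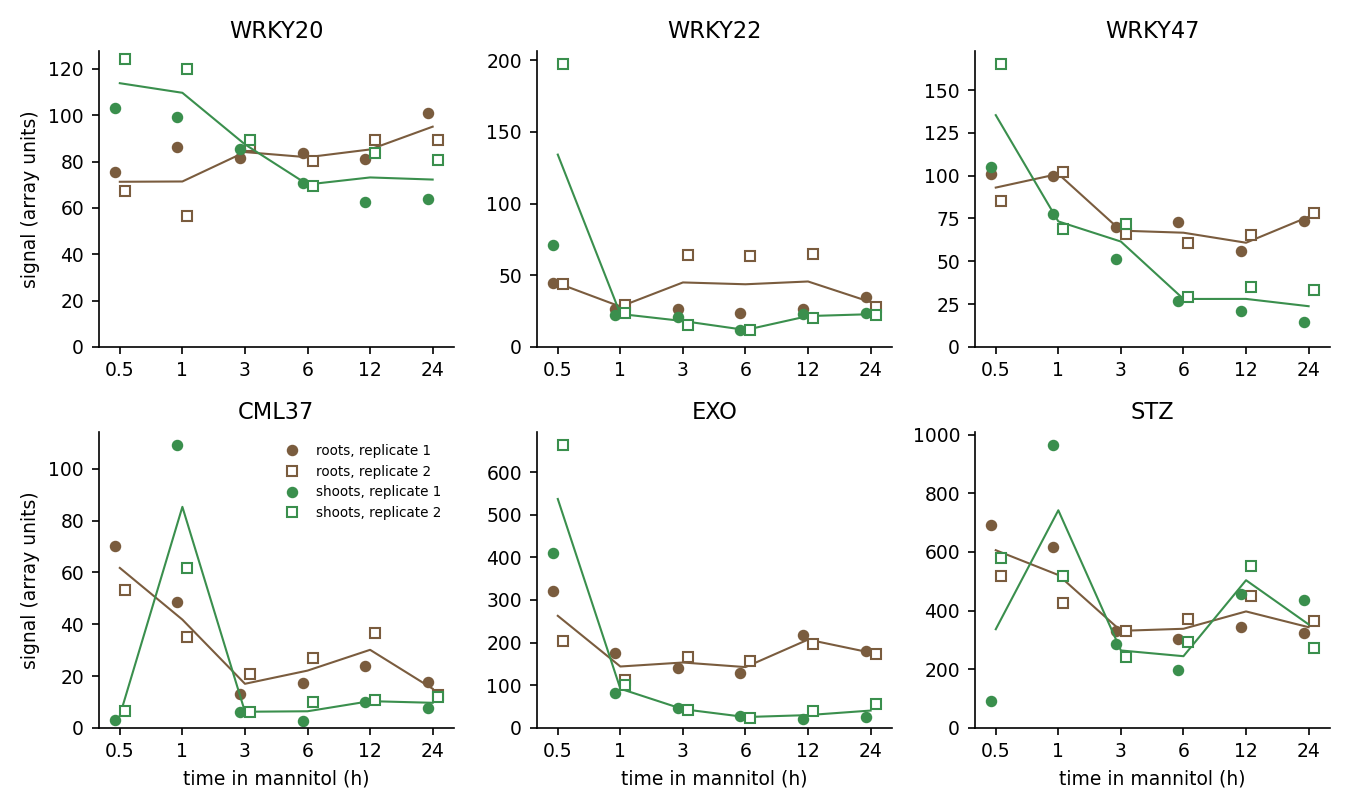
Signal in array units (linear axes from 0, scaled per gene) against time in mannitol for 3 other WRKY genes (top) and 3 early-response genes (bottom), in roots (brown) and shoots (green), with replicate 1 filled, replicate 2 open and lines through the means. In shoots WRKY22 stood at 22.0 and 23.9 at 1 h, against 71.0 and 197 at 0.5 h, while CML37 was high at 1 h alone, at 109 and 61.6.

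Genes of the surrounding pathways were sparse among the named probe sets. Of 42 genes on a list of early touch, wound and stress responses, 4 were tested. CML37, for a calmodulin-like protein, rose in shoots at 1 h by 2.87 ± 0.30 (adjusted p = 6.16e-06), to signals of 109 and 61.6, against 2.87 and 6.61 at 0.5 h. At 24 h CML37 was not called in shoots (0.49) and was lower in roots (-1.60, adjusted p = 0.000475). EXO, a gene of brassinosteroid-linked growth, fell in shoots at 24 h (-3.54 ± 0.31, adjusted p = 3.1e-08). STZ and CML38 were not called at 24 h in either tissue, though STZ passed in roots (-0.79, adjusted p = 0.00861) when only root arrays were fitted. In shoots STZ was at 0.54 (adjusted p = 0.388), and without shoots 0.5 h replicate 2 it was at 1.82 and passed. The list counted 0 up and 1 down of 4 in roots at 24 h, where 40.8% of all probe sets passed, and 0 up and 1 down in shoots, where 58.6% did. Its medians were -0.66 in roots and -0.25 in shoots, against -0.08 and -0.12 over all probe sets. This list too was chosen with earlier results of these data known, so its counts and medians are a description without a test.

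Of 20 regulators and targets of the 2 factors, 1 was tested. SAG101, a senescence-associated gene that acts with EDS1 in defence, was lower in roots at 24 h (-1.17 ± 0.35, adjusted p = 0.013). Its root signals were 25.4 and 15.5 at 24 h, against 59.3 and 50.1 at 0.5 h. The SAG101 call was lost when roots 0.5 h replicate 1 (-1.06) or 24 h replicate 2 (-0.91) was left out, and in shoots it was at 0.06 (adjusted p = 0.902). Of 24 senescence genes 5 were tested, SAG101 among them. The senescence list was chosen with earlier results of these data known. Its counts and medians are therefore a description and not a test of senescence. In roots at 24 h 4 rose and 1 fell (40.8% of all probe sets passed), with a median of 1.92, against -0.08 over all. In shoots 2 rose and 0 fell (58.6% of all passed), with a median of 0.43, against -0.12 over all. SAG29, for a sugar transporter, and IVD, of leucine breakdown, rose in both tissues, while MCCA and MCCB, also of leucine breakdown, rose in roots (1.92 and 1.61) and were at 0.43 and -0.33 in shoots without passing.

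The genes whose pattern was most like each member's were sought among 9205 other tested probe sets naming 1 gene, by Pearson's r of log2 values over the 12 arrays of a tissue. The 2 genes of each correlation were measured on the same 12 arrays, and both a course over time and a gap between replicates raise r. For WRKY6 in shoots the 5 closest were AT3G47120 (0.93), AT3G18250 (0.89), AT4G39955 (0.89), AT2G31945 (0.89) and AT3G57380 (0.89). For WRKY53 in shoots they were AT3G48650 (0.95), AT5G59070 (0.93), AT2G24600 (0.91), AT1G11050 (0.91) and AT3G47380 (0.90). In shoots 0.630% of the probe sets reached an r of 0.8 with each of the 2 genes. For WRKY53 in roots AT3G10720, AT3G02250 and AT1G73430 (each 0.94), AT1G66450 and AT2G44830 (each 0.93) were closest, and 4.93% reached 0.8. For WRKY6 in roots, whose level varied little, AT1G66760 (0.83), AT5G13200 (0.81), SPI (0.80), AT5G35930 (0.80) and AT5G19070 (0.79) were closest, and 0.0435% reached 0.8.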

How the data were processed

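Expression was measured on 24 arrays from total RNA, with biotin as the label. The authors deposited a signal intensity on a linear scale for each probe set, made with MAS5 per the submitters' processing notes. The sources used here give neither its version nor its scaling target, and each array's trimmed mean was 100.007 to 100.01. Gene names come from the platform annotation, updated through the TAIR10.1 gene table.

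Of 22810 probe sets 64 controls were left out. Values were analysed as log2(signal + 7.72), with the 20th percentile of the signals as pseudocount. The 16814 probe sets that exceeded their array's 40th percentile on at least 2 arrays were tested, of which 9206 name 1 gene. The model, in limma 3.58.1 (R 4.3.3), had 12 group means and let the variance follow intensity. It had 12 residual and 5.28 prior degrees of freedom and was checked on simulated arrays. Benjamini-Hochberg adjustment ran within each comparison, with a threshold of 0.05. Alternatives changed the pseudocount, filter, scaling, variance trend, samples fitted, base time and replicate block, and left out each array in turn.

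Members, gene lists and naming rules were chosen with earlier results of these data known. Named genes were the members, the WRKY family by symbol, members of 3 lists, the 5 most alike per member and tissue, and the 5 with the largest replicate gap each way in shoots at 0.5 h. Promoter and protein sequences were not used here.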

Additional observations from a re-analysis of the deposited data

Results flagged for a closer look

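The time course of WRKY6 differed between roots and shoots by a test of the interaction itself. The root minus shoot difference in log2(signal + 7.72) spanned 2.55 over the 6 times, with an adjusted p of 0.0383 in limma, and it was largest at 1 h (3.88) and smallest at 24 h (1.33). The call passed in 11 of the 24 fits that left out 1 array. With 2 arrays per group, no group was large enough for a test of single arrays that stand apart.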

How the results depend on the processing

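The 2 arrays per group limit the precision of every result on time. The mean tissue differences of both genes kept their direction and their call under every alternative run, at 1.99 to 2.66 for WRKY6 and -1.59 to -1.05 for WRKY53. The root course of WRKY6 was called under none. Its root change at 24 h was 0.098, -0.26 with 1 h as the base and -0.079 with the mean of 0.5 h and 1 h, without a call each time. The call of WRKY6 over the times in shoots (range of means 2.29, adjusted p = 0.0504) and its 24 h change (1.27, 0.0722) were lost in a fit of the shoot arrays alone. The WRKY6 difference in course between tissues was lost without a pseudocount (3.05, adjusted p = 0.0530) and without the filter (2.55, 0.0572). The WRKY53 fall in roots at 24 h was lost with 1 h as the base (-1.11, adjusted p = 0.0817), and its root course passed in a fit of the root arrays alone (1.43, 0.00551). In a fit of 1 tissue the differences themselves were unchanged, and the spread came from that tissue alone. The SE at 24 h against 0.5 h was 0.55 for WRKY6 in shoots, against 0.43 in the fit of all arrays. For WRKY53 in roots it was 0.28, against 0.48. The cause of the other changes was not tested.

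Leaving out 1 array at a time gave 0.32 to 2.21 for WRKY6 in shoots at 24 h and -0.11 to 0.30 in roots. It gave 2.103 to 3.00 for the WRKY6 difference in course, -1.88 to -0.99 for WRKY53 in roots at 24 h, -1.39 to 0.32 in shoots, and 1.35 to 1.79 for its shoot course. Where a group was left with 1 array, that array was assumed to vary like the others. The gap between the 2 arrays of that group then no longer counted toward the spread, which favours a pass where that gap was wide.

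Replicate numbers did not pair roots with shoots: deviations of same-numbered arrays of the 2 tissues at a time correlated at -0.11 to 0.04, with 0 of 6 over 0.1. Same-numbered arrays of different times in 1 tissue correlated at -0.05 to 0.33 in roots, with 6 of 15 pairs over 0.1, and at -0.16 to 0.35 in shoots, with 5 of 15 over 0.1. With the replicate block, WRKY53 passed over the times in roots (1.43, adjusted p = 0.0155) and in shoots (1.46, 0.0166), and the other results of the 2 genes over all times, at 24 h against 0.5 h or over the mean tissue difference kept their calls. At single times WRKY53 also passed with the block in roots at 6 h and 12 h (adjusted p = 0.0244 and 0.0406), at 24 h against 1 h in roots (0.0299) and in shoots (0.0196), and between tissues at 6 h (0.0244) and 12 h (0.0308). WRKY6 passed in shoots at 24 h minus 6 h (0.0487), WRKY22 between tissues (0.0355) and WRKY47 in shoots at 1 h (0.0448). The block moved the count of probe sets called in shoots at 24 h to 9850, against 9854 without it.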
